A study of Mus musculus with 12 samples.

Results

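The 9 genes Pdlim4, Ampd1, Amigo2, Gpr34, Dntt, Lypd6b, Adcy6, Cdh13 and Auts2 were followed across sorted mouse CD4+ T cells to find at which sort gate the signal of each was lost. They were picked from the deposited values because they were bright in naive or PD1-low cells and dropped in CXCR5+ cells, so their levels in these groups and the differences between them are descriptions with no test. The rule set no numeric threshold. They are 9 of 18194 genes that a probe set with 1 gene symbol measured, and 19 of the 45101 probe sets of the array were annotated to them. The levels met the rule for 8 of the 9 genes. Cdh13 did not meet it, because its probe set was bright in PD1-intermediate cells, which are CXCR5+, and was below log2 5 on every naive array.

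Gene expression was measured on 12 Affymetrix arrays, each from pooled cells of 2 to 6 S1pr2V/+ mice, which carry a Venus reporter at 1 copy of S1pr2. All were immunized under the skin, per the labels, with CGG (chicken gamma globulin) in CFA (complete Freund's adjuvant) 10 days before the sort, although the study's design text also names control mice and does not say which cells came from them. Lymph node cells were sorted as CD4+ CXCR5+ PD1-high CD44-high follicular helper T cells (Tfh) that were Venus-high (3 arrays) or Venus-low (3 arrays), as CXCR5+ PD1-intermediate CD44-high T helper cells (2 arrays) and as CXCR5-low PD1-low CD44-high T helper cells (2 arrays). Naive cells, CD44-low and CD62L-high, came from spleen (2 arrays), so tissue and naive state cannot be told apart. The labels give no age or sex, a pool is 1 sample, and nothing says whether pools were independent experiments, so p-values measure the spread between these samples.

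CXCR5 is the chemokine receptor that brings T cells into B cell follicles, and PD1 is an inhibitory receptor that is highest on Tfh cells in germinal centres, where they help B cells. Naive CD4 T cells become CXCR5+ helper cells after antigen, and many genes of the resting state are turned down on the way. The 9 genes belong to no single pathway: they encode an adaptor of the actin cytoskeleton, enzymes of nucleotides and of cyclic AMP, adhesion proteins, a lipid receptor, a chromatin factor, a DNA polymerase of lymphocyte development and a small surface protein.

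The deposited values are log2 signals, which lie near 2 where no transcript is measured, and log2 5 is taken here as the level under which a gene is called off in a group, if every array of the group lies below it. Quantiles of the 12 arrays fell into 3 array sets that the labels do not name, with 3, 4 and 5 arrays and upper quartiles of 8.50 to 8.55, 8.68 to 8.76 and 9.39 to 9.42. Both Tfh groups had an array in each set, PD1-low and naive cells each had 1 in set 2, the other PD1-low array was in set 3 and the other naive array in set 1, and both PD1-intermediate arrays were in set 3. A displacement of over 3 log2 units, in set 2 against each of the other sets, was seen at 3315 probe sets, with 0 of those that stand for the 9 genes among them. The gate gene Cxcr5 followed the labels and was 14.27, 14.26 and 14.28 in Venus-high Tfh, 13.71, 13.14 and 13.76 in Venus-low Tfh, 13.92 and 13.58 in PD1-intermediate cells, 5.18 and 6.75 in PD1-low cells and 2.51 and 2.90 in naive cells.

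Pdlim4, Amigo2 and Dntt were among the genes bright in naive cells and off in both Tfh groups. Of the 9 genes, only these 3 had a promoter sequence at hand, and all 3 sequences are shown. They run from 250 bases before to 50 bases after the RefSeq gene start (build GRCm38.p6), at chr11:54068968-54069267 on the minus strand, chr15:97247238-97247537 on the minus strand and chr19:41029025-41029324 on the plus strand. Capitals mark matches on either strand to the E-box CANNTG, bound by helix-loop-helix factors such as ASCL2 and E proteins, and to the GC box GGGCGG.
Pdlim4 promoter: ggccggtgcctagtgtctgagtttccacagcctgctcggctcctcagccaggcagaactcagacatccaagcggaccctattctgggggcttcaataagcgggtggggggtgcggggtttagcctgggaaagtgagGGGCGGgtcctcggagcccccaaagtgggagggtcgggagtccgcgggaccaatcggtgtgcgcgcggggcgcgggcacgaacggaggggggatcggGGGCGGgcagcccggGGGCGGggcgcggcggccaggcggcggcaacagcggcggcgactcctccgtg
Amigo2 promoter: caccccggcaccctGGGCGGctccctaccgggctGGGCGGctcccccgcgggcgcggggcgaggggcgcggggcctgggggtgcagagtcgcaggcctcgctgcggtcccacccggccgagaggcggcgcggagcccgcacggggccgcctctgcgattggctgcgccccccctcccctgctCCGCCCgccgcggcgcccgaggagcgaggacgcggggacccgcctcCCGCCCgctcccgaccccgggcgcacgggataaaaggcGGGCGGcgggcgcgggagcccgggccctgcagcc
Dntt promoter: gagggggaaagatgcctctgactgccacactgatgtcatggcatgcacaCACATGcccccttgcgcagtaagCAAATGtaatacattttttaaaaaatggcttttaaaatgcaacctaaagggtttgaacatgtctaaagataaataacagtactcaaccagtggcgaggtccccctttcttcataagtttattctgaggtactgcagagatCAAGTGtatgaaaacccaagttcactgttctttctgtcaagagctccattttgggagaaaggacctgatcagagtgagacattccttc
The promoters of Pdlim4 and Amigo2 were 71.7% and 83.3% G and C, with 31 and 46 CG dinucleotides, while that of Dntt was 42.3% G and C with 2 CG dinucleotides. Over all 32851 promoters of this length the medians were 52.7% and 7. Pdlim4 held 3 GC boxes and Amigo2 5, with 0 in Dntt, against 35.7% of all promoters with at least 1. The E-box matched 3 times in Dntt and 0 times in Pdlim4 and Amigo2, against 72.3% of all promoters with at least 1. Dntt and Pdlim4 each held 1 match to GGGAA, the core bound by the zinc finger factor Ikaros, which 62.7% of promoters had. The RUNX motif TGTGGT, held by 16.8% of all promoters, had 0 matches in these 3 windows on either strand. The TCF/LEF motif CTTTGA, held by 16% of all promoters, had 0 matches as well. The motif TTCNNNGAA of STAT and BCL6 factors, held by 8.30%, also had 0. All motifs were searched on both strands, and a match describes the letters only.

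Of the 9 genes, 8 were off in Venus-high Tfh, 9 in Venus-low Tfh, 5 in PD1-intermediate cells, 1 in PD1-low cells and 1 in naive cells. The genes were picked for such a drop, so these counts restate the choice. Of all 9893 genes tested, 81.8% reached log2 5 on every naive and PD1-low array, and 78.6% on every array of all groups. The gate at which the signal was lost divided the 9 genes into 4 kinds. Pdlim4, Ampd1, Amigo2 and Gpr34 were bright in naive and PD1-low cells and off in all 3 CXCR5+ groups. Lypd6b, Adcy6 and, by 1 of its 3 probe sets, Dntt kept a lower signal in PD1-intermediate cells and were first off in Venus-low Tfh. This gate rests on the log2 5 level. Dntt and Lypd6b already differed by -5.79 and -3.49 between PD1-intermediate and PD1-low cells, and Adcy6 reached 5.94 on a Venus-high array. By its other probe sets Dntt was already off in PD1-intermediate cells. Cdh13 was bright in PD1-intermediate cells and off in both Tfh groups, and Auts2 was measured in naive cells only.

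**Figure D1:**
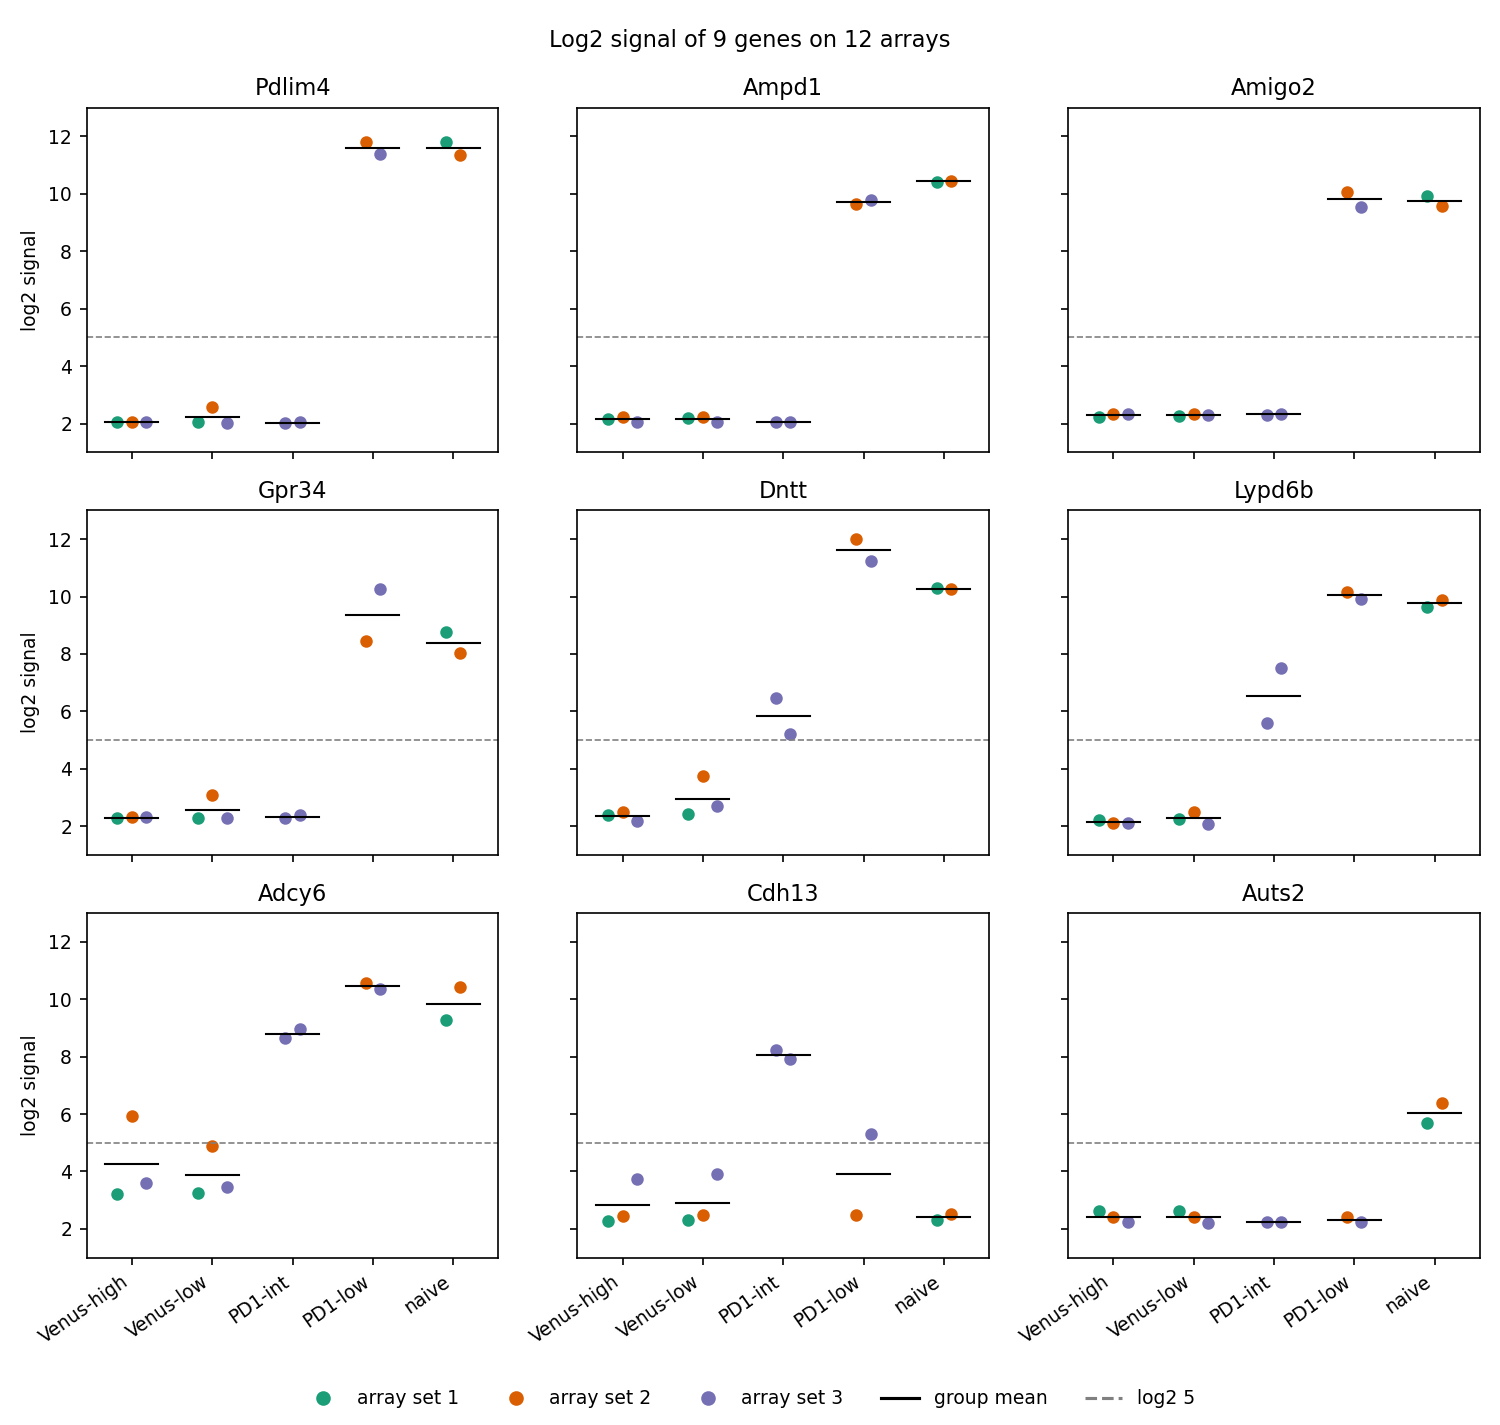
Log2 signal (vertical axis) of the probe set that stands for each of the 9 genes, by sorted group (horizontal axis), with 1 point per array coloured by array set, a black line for the group mean and a dashed line at log2 5. Pdlim4, Ampd1, Amigo2 and Gpr34 lie at 3.07 or lower on all 8 CXCR5+ arrays and at 8.02 or higher on the 4 others, while Dntt, Lypd6b and Adcy6 have intermediate levels in PD1-intermediate cells.

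Pdlim4 encodes a PDZ and LIM domain protein that binds alpha-actinin on actin filaments, and lies on chromosome 11. Its level was 2.05, 2.06 and 2.04 in Venus-high Tfh, 2.05, 2.57 and 2.04 in Venus-low Tfh, 2.03 and 2.04 in PD1-intermediate cells, 11.79 and 11.38 in PD1-low cells and 11.79 and 11.37 in naive cells. The CXCR5+ arrays and the others did not come near each other, and the CD44-high PD1-low cells were as bright as naive cells. The PD1-intermediate minus PD1-low difference was -9.55 ± 0.27 (SE), and Pdlim4 was at least 96.0-fold lower in PD1-intermediate cells than in PD1-low cells, with log2 5 as the floor. Within array set 3, the only one with both groups, the difference was -9.34.

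Ampd1, on chromosome 3, encodes an AMP deaminase, best known from skeletal muscle, which turns AMP into IMP. Its level was 2.17, 2.22 and 2.05 in Venus-high Tfh, 2.18, 2.23 and 2.04 in Venus-low Tfh, 2.04 and 2.05 in PD1-intermediate cells, 9.65 and 9.77 in PD1-low cells and 10.42 and 10.46 in naive cells. It was the gene of these 4 whose naive arrays both lay above both PD1-low arrays. Ampd1 was at least 26.2-fold lower in PD1-intermediate than in PD1-low cells (difference -7.67 ± 0.20, and -7.73 within array set 3), and at least 43.3-fold lower in Venus-high Tfh than in naive cells.

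Amigo2, on chromosome 15, encodes a leucine-rich repeat adhesion protein first known from neurons. Its level was 2.24, 2.34 and 2.32 in Venus-high Tfh, 2.25, 2.35 and 2.29 in Venus-low Tfh, 2.30 and 2.34 in PD1-intermediate cells, 10.07 and 9.56 in PD1-low cells and 9.93 and 9.57 in naive cells. The PD1-low and naive ranges overlapped and the CXCR5+ arrays were all near the lowest signal of the array. Amigo2 was at least 28.1-fold lower in PD1-intermediate than in PD1-low cells (difference -7.49 ± 0.24, and -7.23 within array set 3). A second Amigo2 probe set stayed below log2 5 on all 12 arrays, so these values rest on 1 probe set.

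Gpr34, on chromosome X, encodes a receptor for lysophosphatidylserine, coupled to Gi proteins. Its level was 2.28, 2.32 and 2.31 in Venus-high Tfh, 2.30, 3.07 and 2.29 in Venus-low Tfh, 2.29 and 2.38 in PD1-intermediate cells, 8.46 and 10.25 in PD1-low cells and 8.78 and 8.02 in naive cells. The naive arrays lay on either side of the lower PD1-low array, and the PD1-low arrays differed more from each other (SD 1.27, n = 2) than those of Pdlim4, Ampd1 and Amigo2. Gpr34 was at least 20.5-fold lower in PD1-intermediate than in PD1-low cells (difference -7.02 ± 0.55, and -7.92 within array set 3).

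For these 4 genes the Venus-low minus PD1-intermediate difference lay between -0.02 (Amigo2) and 0.22 (Gpr34), at levels where all arrays were off. No step past the CXCR5 and PD1-intermediate gate could therefore be seen for them, since values below log2 5 carry no order. In bulk cells, fewer cells with a transcript and less transcript per cell cannot be told apart.

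Dntt, on chromosome 19, encodes terminal deoxynucleotidyl transferase, the DNA polymerase that adds untemplated nucleotides at the joints of antigen receptor genes in developing lymphocytes. Its probe set with the highest mean read 2.39, 2.49 and 2.17 in Venus-high Tfh, 2.41, 3.75 and 2.71 in Venus-low Tfh, 6.45 and 5.20 in PD1-intermediate cells, 11.99 and 11.24 in PD1-low cells and 10.31 and 10.25 in naive cells. The PD1-intermediate arrays lay between the Tfh arrays and the others without overlap, and both PD1-low arrays lay above both naive arrays. The PD1-intermediate minus PD1-low difference was -5.79 ± 0.53, with both groups above log2 5. The step to Venus-low Tfh had only a bound, at least 1.77-fold lower than in PD1-intermediate cells, since all Venus-low arrays were below log2 5. Dntt was at least 98.2-fold lower in Venus-high Tfh than in PD1-low cells.

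The 3 Dntt probe sets gave different gates for the loss. The second, whose probe set name marks it as open to matches with other transcripts, read 4.23 and 2.84 in PD1-intermediate cells, 10.88 and 8.88 in PD1-low cells and 9.44 and 9.16 in naive cells. The third read 2.08 and 2.09 in PD1-intermediate cells, 9.18 and 8.17 in PD1-low cells and 6.65 and 7.06 in naive cells. By both of these Dntt was already off in PD1-intermediate cells, and by all 3 it was off in both Tfh groups.

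**Figure D2:**
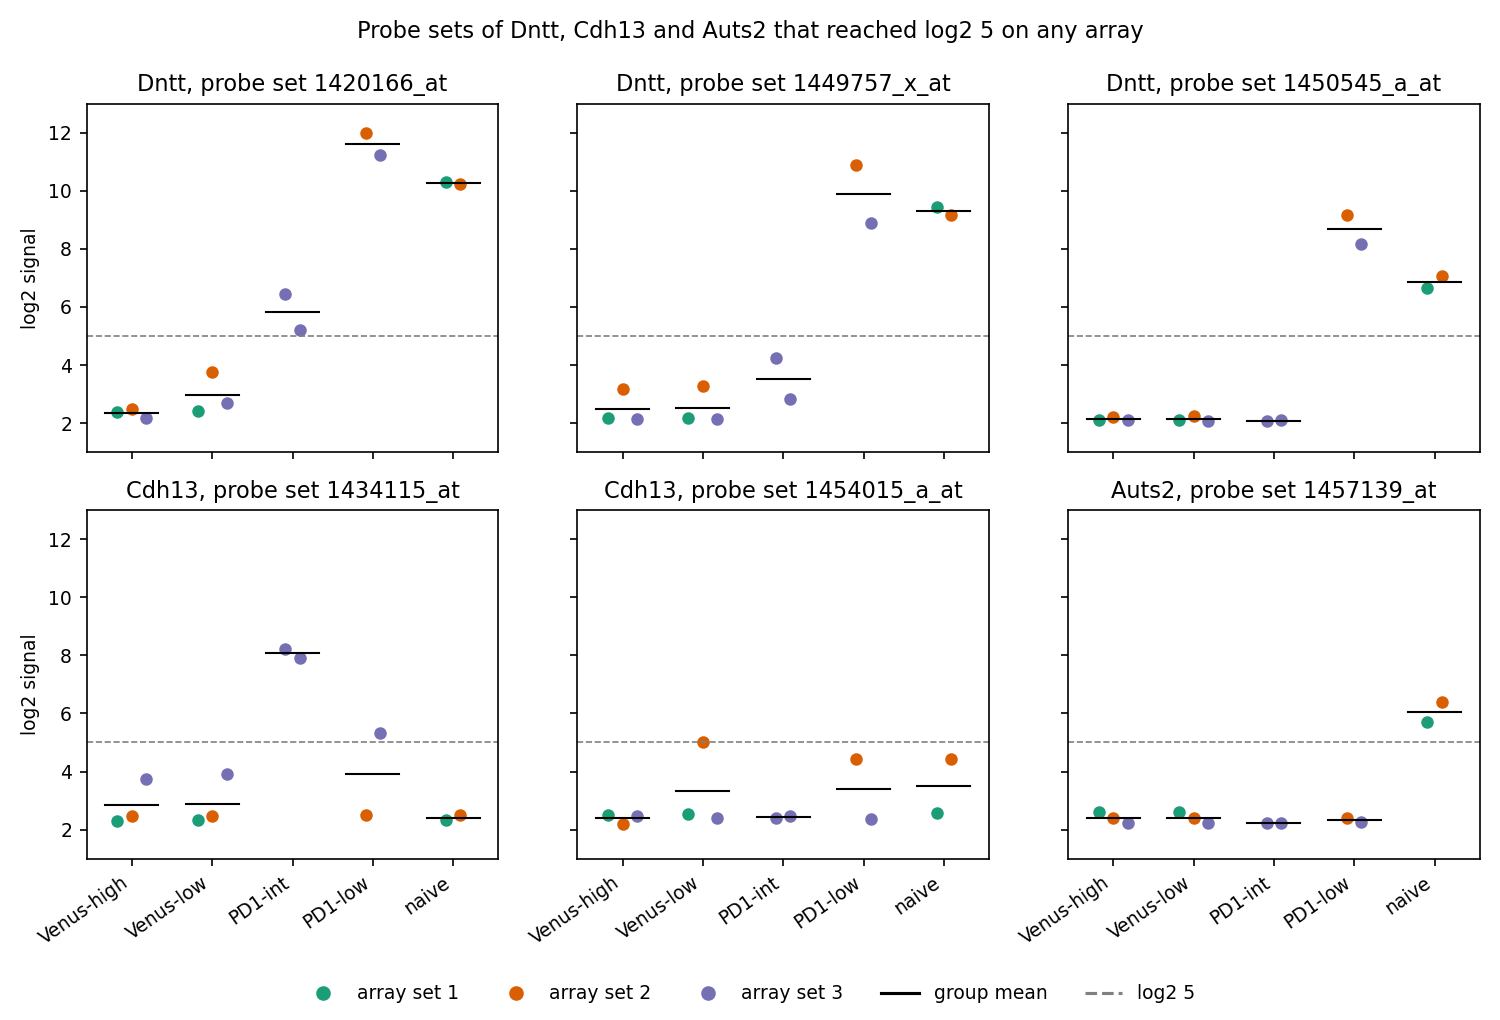
Log2 signal (vertical axis) by sorted group (horizontal axis) for the 6 probe sets of Dntt, Cdh13 and Auts2 that reached log2 5 on any array, with 1 point per array coloured by array set, group means as black lines and log2 5 dashed. The PD1-intermediate arrays read 6.45 and 5.20 with the first Dntt probe set but 2.08 and 2.09 with the third.

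Lypd6b, on chromosome 2, encodes a surface protein of the Ly6 and PLAUR domain family that modulates nicotinic acetylcholine receptors. Its level was 2.23, 2.12 and 2.10 in Venus-high Tfh, 2.24, 2.51 and 2.10 in Venus-low Tfh, 5.59 and 7.50 in PD1-intermediate cells, 10.17 and 9.91 in PD1-low cells and 9.65 and 9.89 in naive cells. The PD1-intermediate arrays lay between the Tfh arrays and the others without overlap, and they differed from each other by more than the arrays of any other group of this gene (SD 1.35, n = 2). The PD1-intermediate minus PD1-low difference was -3.49 ± 0.51, and -3.37 within array set 3, with both groups above log2 5. For the step to Venus-low Tfh, where all arrays were below log2 5, only a bound was had, at least 2.92-fold lower than in PD1-intermediate cells.

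Adcy6, on chromosome 15, encodes an adenylyl cyclase, which makes cyclic AMP when Gs-coupled receptors are active. Its level was 3.23, 5.94 and 3.59 in Venus-high Tfh, 3.24, 4.88 and 3.47 in Venus-low Tfh, 8.64 and 8.94 in PD1-intermediate cells, 10.56 and 10.37 in PD1-low cells and 9.28 and 10.42 in naive cells. Of the 7 genes bright in both naive and PD1-low cells it dropped least at the CXCR5 gate, with a PD1-intermediate minus PD1-low difference of -1.67 ± 0.89. The step to Venus-low Tfh was -4.93 ± 0.82, at least 13.9-fold lower, and -5.33 within array set 3. In each Tfh group the array of set 2 was the highest, at 5.94 and 4.88. Because of the 5.94, Adcy6 was not off in Venus-high Tfh, and without the arrays of set 2, left out after seeing the data, 9 of the 9 genes were off in that group.

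Cdh13, on chromosome 8, encodes T-cadherin, a cadherin held in the membrane by a lipid anchor. Its brightest probe set read 2.29, 2.46 and 3.75 in Venus-high Tfh, 2.32, 2.47 and 3.90 in Venus-low Tfh, 8.24 and 7.90 in PD1-intermediate cells, 2.49 and 5.31 in PD1-low cells and 2.32 and 2.51 in naive cells. Cdh13 was thus highest in PD1-intermediate cells, where both arrays lay above every other, and the naive arrays were as low as those of the Tfh groups. Cdh13 was at least 8.39-fold lower in both Tfh groups than in PD1-intermediate cells. In both Tfh groups and in PD1-low cells the set 3 array was the highest, and both PD1-intermediate arrays were in that set. The part of the array set in the level of Cdh13 was not tested. Within set 3 the difference was 2.76 between PD1-intermediate and PD1-low cells and -4.17 between Venus-low Tfh and PD1-intermediate cells. Of the other 3 Cdh13 probe sets, 1 reached log2 5 on a single array, Venus-low replicate 2 at 5.02, and 2 stayed below it on all arrays.

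Auts2, on chromosome 5, encodes a partner of a variant Polycomb repressive complex 1, a chromatin regulator studied mostly in neurons. Its level was 2.61, 2.40 and 2.23 in Venus-high Tfh, 2.62, 2.40 and 2.22 in Venus-low Tfh, 2.24 and 2.22 in PD1-intermediate cells, 2.41 and 2.25 in PD1-low cells and 5.70 and 6.39 in naive cells. The naive arrays stood apart from the 10 others, and the signal was already lost in CXCR5-low PD1-low cells, before any CXCR5+ gate. It was at least 2.06-fold lower in PD1-low than in naive cells. The other 4 Auts2 probe sets stayed below log2 5 on all 12 arrays, and the 2 naive arrays were the only ones through which the gene passed the filter on dim probe sets.

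**Figure D3:**
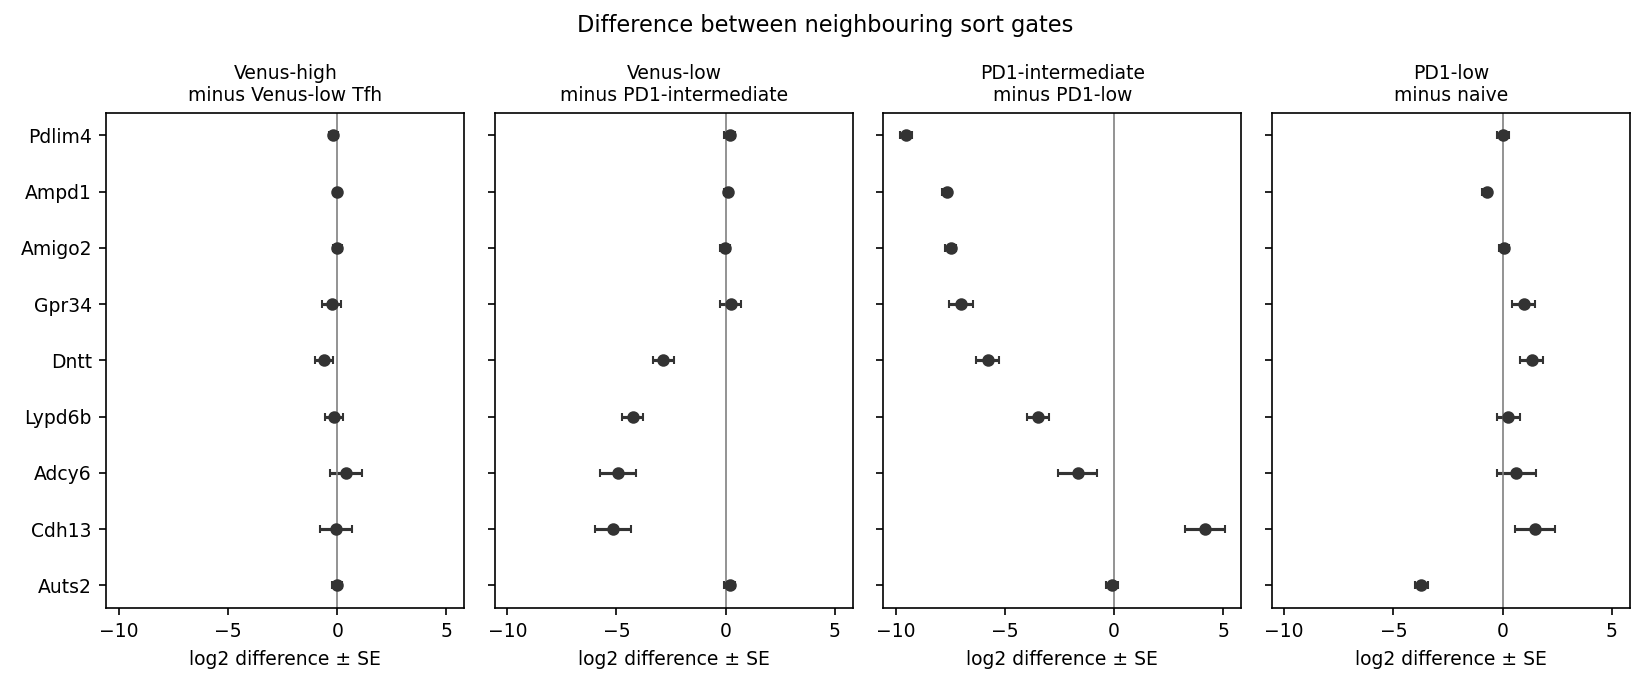
Log2 difference with its SE (horizontal axis) between neighbouring sort gates for each of the 9 genes (vertical axis), 1 panel for each comparison, from the fit of all 12 arrays. Pdlim4, Ampd1, Amigo2 and Gpr34 lie between -9.55 and -7.02 for PD1-intermediate minus PD1-low, between -0.02 and 0.22 for Venus-low minus PD1-intermediate and between -0.73 and 0.96 for PD1-low minus naive, Cdh13 lies at 4.17 in that panel, and all 9 lie between -0.61 and 0.39 for Venus-high minus Venus-low Tfh; differences with a group below log2 5 are not measured sizes.

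The rule asked for a drop in CXCR5+ cells, which include both Tfh groups, so the split by the Venus reporter mostly compares off values with off values. A lack of calls there was largely fixed by the choice of genes and is no result about them. None of the 9 genes passed the limma test (0 called, and 0 at an unadjusted p under 0.05), against 1.31% of all 9893 genes tested (0.435% higher and 0.879% lower). Their Venus-high minus Venus-low differences ran from -0.61 ± 0.43 for Dntt, with the lowest adjusted p (adjusted p = 0.929, limma, n = 3 and 3), to 0.39 ± 0.73 for Adcy6, with a median of -0.06 against 0.02 over all genes tested. Of these Tfh values only the 5.94 of Adcy6 lay above log2 5, so differences between the Tfh groups were mostly out of the measurable range. Tfh arrays of equal number came from pools of equal size, and with the number as a block on the 6 Tfh arrays 1001 genes were called in place of 130, but again 0 of the 9. Within array sets 1, 2 and 3 Dntt differed by -0.02, -1.26 and -0.54 and Adcy6 by -0.01, 1.06 and 0.12.

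Naive and PD1-low cells are both on the bright side of the rule, and 1 of the 9 genes, Auts2, passed the test between them, against 0.0809% of all genes tested (0.0708% higher and 0.0101% lower). Auts2 was lower in PD1-low cells by a difference of -3.72 ± 0.28 (adjusted p = 0.00243, limma, n = 2 and 2, lower in 2 of 2 arrays), and by -3.98 within array set 2. Having passed the filter only through its naive arrays, it could hardly do other than differ, so the call is no evidence about the gene beyond its levels. The call was lost in 5 of 14 alternatives: with values below log2 5 set to that level (difference -1.04, adjusted p = 0.349), with an intensity trend (adjusted p = 0.262), with the arrays of these groups alone (adjusted p = 0.979), without PD1-low replicate 2 (adjusted p = 0.0549) and without array set 2 (adjusted p = 0.166). Over the 14 the adjusted p ran between 6.13e-05 and 0.979. Of the 8 others, Ampd1 differed by -0.73 ± 0.20 (adjusted p = 0.501, limma) and Dntt by 1.34 ± 0.53 (adjusted p = 0.958, limma). Within array set 2 the Dntt difference was 1.74. Without a filter on dim probe sets, Ampd1 passed (adjusted p = 0.0216).

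The pattern of the first 4 genes was uncommon on the array. Of the 9893 genes tested, 8093 reached log2 5 on all 4 naive and PD1-low arrays, and 37 of these, 0.374% of all genes, were off in all 3 CXCR5+ groups, Pdlim4, Ampd1, Amigo2 and Gpr34 among them. By the mean difference between the 8 CXCR5+ arrays and the 4 others they took ranks 1, 2, 3 and 5 of the 37, at -9.47, -7.95, -7.48 and -6.47. The rule asked for such a drop but named no rank, so these ranks are no result about the genes. For all 37 genes the CXCR5+ values lay below log2 5, so the sizes of these differences are not measured. Ggt5, a gamma-glutamyltransferase gene named after its value was seen, took rank 4 at -6.67. A further 6 genes were on in naive, PD1-low and PD1-intermediate cells and off in both Tfh groups. Lypd6b was among them, as was Dntt by its brightest probe set only. Another 14 were on in all groups but Venus-high Tfh. For context, between PD1-intermediate and PD1-low cells 0.94% of all genes were called lower and 3.07% higher, but that contrast chose the members and nothing is read from their place in it.

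**Figure D4:**
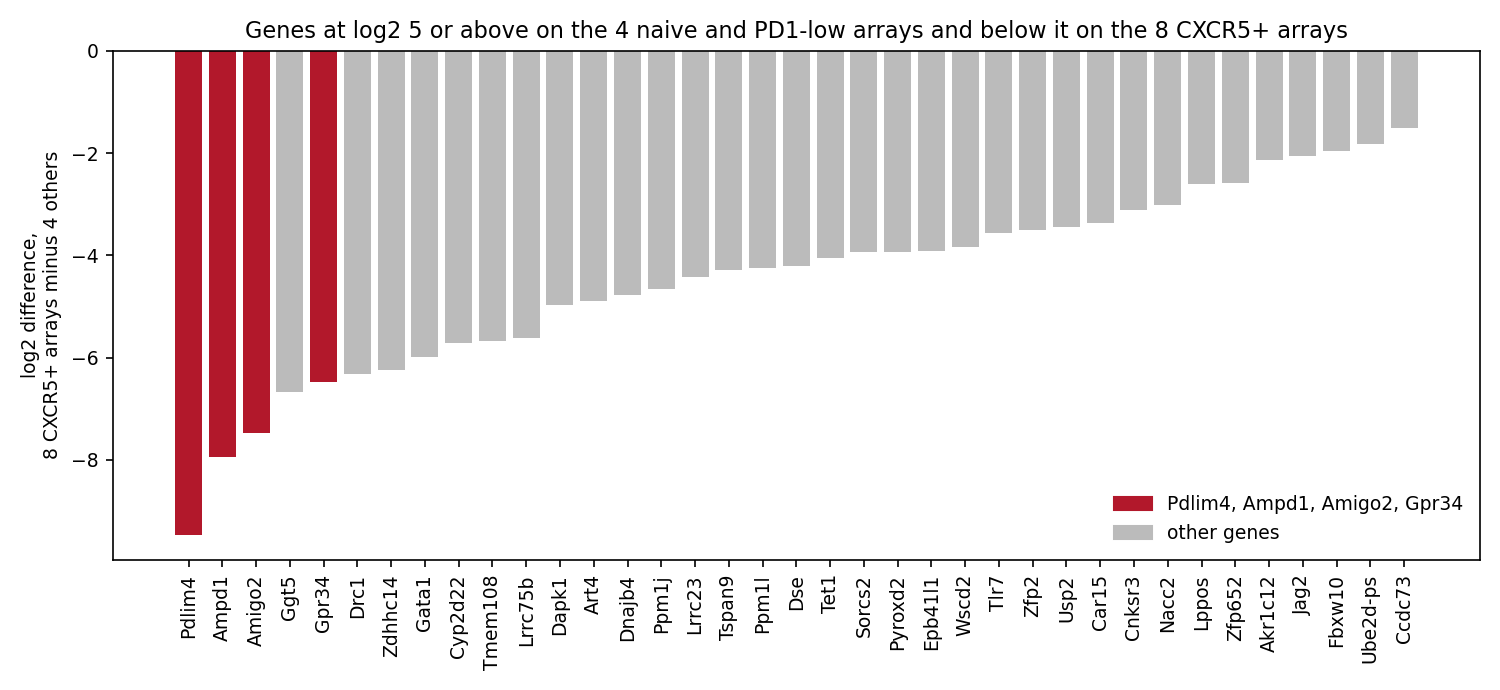
Mean log2 difference (vertical axis), the 8 CXCR5+ arrays minus the 4 naive and PD1-low arrays, for the 37 genes (horizontal axis) at log2 5 or above on the 4 and below it on the 8. Red bars mark Pdlim4, Ampd1, Amigo2 and Gpr34, at -9.47, -7.95, -7.48 and -6.47. With the CXCR5+ values below log2 5, the bars are not measured sizes.

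Over the 12 arrays the levels of Pdlim4, Ampd1 and Amigo2 correlated with each other by Pearson's r of at least 0.997, and those of Gpr34 with theirs by 0.980 to 0.986. Lypd6b correlated by 0.966 with Dntt and 0.951 with Adcy6, while the correlations of Cdh13 with the other 8 ran from -0.362 (Auts2) to 0.313 (Adcy6). The arrays share 5 groups and 3 array sets, so these values describe group levels and are given with no test. The genes outside the 9 whose levels over the 12 arrays were most like those of Pdlim4 and Ampd1 were Drc1 (r = 0.995 and 0.999), Zdhhc14 (0.994 and 0.999) and Tspan9 (0.992 and 0.997), and for Amigo2 they were Drc1 (0.994), Zdhhc14 (0.993) and Cyp2d22 (0.991). Epb41l1, Sorcs2 and Tmem108 were closest to Gpr34, at 0.988, 0.986 and 0.986. Slc17a9 (0.975), Ubxn11 (0.973) and Ppm1j (0.968) were closest to Dntt, Galnt10 (0.983), Treml2 (0.982) and Tbxa2r (0.980) to Lypd6b, and B430306N03Rik (0.983), Arhgap29 (0.969) and Sidt1 (0.962) to Adcy6. Sh3glb2 (0.945), Lipa (0.943) and Rnf169 (0.939) were closest to Cdh13, and Fgfbp3 (0.887), Tm9sf1 (0.882) and Ccnd3 (0.853) to Auts2.

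Relatives of the 9 genes were called about as often as other genes at the CXCR5 gate. Of 76 measured genes in 9 lists of relatives, 3 were higher and 0 lower in PD1-intermediate than in PD1-low cells, 3.95% against 4.01% of all genes, and 0 were higher and 1 lower in Venus-low Tfh than in PD1-intermediate cells, 1.32% against 0.566% (0.354% higher and 0.212% lower). Between Venus-high and Venus-low Tfh 1 was higher and 2 were lower, 3.95% against 1.31%, and between PD1-low and naive cells 0 passed (2 at an unadjusted p under 0.05, limma), with the lists' median difference at 0.21 against 0.28 over all genes. With the array set as a term, the relatives had 9 higher and 1 lower at the CXCR5 gate, 13.2% against 12.8% of all genes, 3 higher and 4 lower at the step to Venus-low Tfh, 9.21% against 6.38%, and 6 higher and 11 lower between the Tfh groups, 22.4% against 16.9%.

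Among 4 further PDZ and LIM domain genes, Pdlim7 rose by 3.34 ± 0.32 in PD1-intermediate over PD1-low cells (adjusted p = 6.63e-04, limma), and Pdlim1 fell by 2.44 ± 0.22 in Venus-high against Venus-low Tfh (adjusted p = 0.00177, limma), where Pdlim4 was off. Among 6 further P2Y-like receptor genes, Gpr18 differed by -3.11 ± 0.33 between Venus-low Tfh and PD1-intermediate cells (adjusted p = 0.0120, limma) and by -3.03 ± 0.29 between Venus-high and Venus-low Tfh (adjusted p = 0.00262, limma). Its mean level was 5.86 in Venus-high Tfh, 8.89 in Venus-low Tfh and 12.01 in PD1-intermediate cells, a fall later in the sort order than that of Gpr34. Gpr183, the receptor for oxysterols that guides cells to the outer follicle, rose by 1.85 ± 0.33 in PD1-intermediate over PD1-low cells (adjusted p = 0.0154, limma). Pcgf2, a Polycomb subunit, was the 1 called gene of 20 further Polycomb genes, higher in PD1-intermediate cells at a mean of 7.19 than in PD1-low cells, where both arrays were below log2 5 (adjusted p = 0.0146, limma). Flrt2, a leucine-rich repeat adhesion gene, was the 1 called of 4 measured relatives of Amigo2, at 4.49, 6.62 and 6.91 in Venus-high Tfh, against 2.32, 2.30 and 3.11 in Venus-low Tfh (adjusted p = 0.0269, limma). It passed the filter only through 2 Venus-high arrays and so had to differ, and the size of the difference was not measured, as all Venus-low arrays were below log2 5. By limma, none of 13 further adenosine nucleotide genes, 9 recombination and end joining genes, 4 cadherin and catenin genes, 14 cyclic AMP genes and 2 Ly6 family genes passed in any of the 4 comparisons (12 of these 42 genes had an unadjusted p under 0.05 in at least 1), but with the array set as a term 14 of the 42 passed in at least 1. Of 7 measured genes of thymocytes and recent thymic emigrants other than Dntt, 0 passed in any of the 4 comparisons by limma (4 of the 7 had an unadjusted p under 0.05 in at least 1, and 4 passed in at least 1 with the array set as a term). Rag1 and Ptcra, genes of developing thymocytes, lay at 2.18 or lower and 2.27 or lower on all 12 arrays. Among the other genes of that list, Sox4, Satb1, Cd8b1, Cd24a and Themis were higher in PD1-low cells than in both Tfh groups by their means. Plxnd1 and Ikzf2 went the other way, at 7.98 and 13.38 in Venus-high Tfh, 5.04 and 13.38 in Venus-low Tfh and 3.47 and 12.66 in PD1-low cells. Sox4 averaged 3.70 in Venus-high Tfh, 5.001 in Venus-low Tfh, 5.57 in PD1-intermediate, 7.32 in PD1-low and 6.19 in naive cells. Satb1 averaged 10.87, 12.06, 13.65, 13.75 and 13.63 in the same groups, and Cd8b1 2.89, 3.52, 4.69, 6.49 and 4.12.

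Of 18 other naive and quiescence genes, 1 passed between PD1-intermediate and PD1-low cells, Igfbp4, which fell by 8.40 ± 1.08 (adjusted p = 0.00303, limma), and 17 did not, against 0.94% of all genes lower. With the array set as a term 6 were lower and 0 higher. The list's median difference was -0.55 against 0.29 over all genes. Between Venus-high and Venus-low Tfh 3 of the 18 fell, Ccr7, Il7r and Actn1, and 0 rose, against 0.879% of all genes lower and 0.435% higher. With the array set as a term 7 were lower and 1 higher. The list's summed level was 15.51 to 16.15 in Venus-high Tfh, 15.64 to 16.22 in Venus-low Tfh, 16.72 to 16.89 in PD1-intermediate cells, 17.39 to 17.70 in PD1-low cells and 17.43 to 17.60 in naive cells. The share of naive-like cells in each sort was not measured, and its part in the levels of the 9 genes was not tested.

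T cell markers were present in every group, with 0 of 5 off. Of 12 myeloid and mast cell markers, 12 were off in every group. Of 8 B cell markers, 6, 5, 6, 6 and 7 were off in the Venus-high and the Venus-low Tfh, in PD1-intermediate, PD1-low and naive cells. The summed levels of the 3 measured ones were 12.16 to 13.01, 10.71 to 12.29, 9.55 to 10.26, 6.93 to 9.06 and 3.96 to 6.08. Pax5 among them was displaced in array set 2, where its naive array read 5.69. Cd22, which led the sums in the CXCR5+ groups, averaged 12.51, 11.52, 9.72, 3.98 and 2.78. Cd79b ran otherwise, with means of 3.20, 5.05, 6.67, 7.41 and 2.71, and Cd79a and Ms4a1 were off throughout. Of 8 CD8 and NK cell markers, 6, 4, 3, 3 and 5 were off in the same groups. The 6 measured ones, with Prf1 displaced in array set 2 (2.13 to 2.14 there, 8.25 to 10.24 elsewhere), had summed levels of 7.35 to 10.41, 8.53 to 10.81, 10.87 to 10.98, 10.91 to 12.12 and 9.82 to 10.00. Among them Klrd1, an NK cell receptor gene named after its values were seen, was bright in PD1-low and naive cells and off in Venus-high Tfh, at 2.03, 1.99 and 2.74 in Venus-high Tfh, 3.66, 4.99 and 5.93 in Venus-low Tfh, 7.56 and 8.94 in PD1-intermediate cells, 10.80 and 11.50 in PD1-low cells and 9.45 and 9.73 in naive cells. Others of that list did not follow it: Klrc1 averaged 3.03, 5.94, 6.51, 2.52 and 2.55 in these groups and Gzma 7.45, 8.76, 7.78, 4.94 and 2.59. Regulatory T cell markers summed to 14.14 to 15.14, 14.22 to 15.20, 14.59 to 14.76, 14.17 to 15.49 and 11.61 to 11.98, with 2 of 7 off in Venus-high Tfh and 0 elsewhere. In the CXCR5+ groups these sums were carried by Ikzf2, Nrp1 and Ctla4. In PD1-low cells Ikzf2, at a mean of 12.66, and Gpr83, at 12.41, were the highest, and in naive cells Gpr83, at 10.55, and Foxp3, at 9.18. Between Venus-high and Venus-low Tfh 3 of the 7 fell and 0 rose (4 and 0 with the array set as a term), with a median difference of -3.99 against 0.02 over all genes. They were Foxp3, which defines regulatory T cells and averaged 6.00 in Venus-high Tfh, 10.999 in Venus-low Tfh, 11.19 in PD1-intermediate, 11.93 in PD1-low and 9.18 in naive cells (adjusted p = 0.00183, limma), Ikzf4 and Gpr83. Gpr83 averaged 4.40, 8.39, 9.99, 12.41 and 10.55 in these groups, Ikzf4 3.44, 8.45, 8.97, 10.62 and 7.88, and Il2ra, which did not pass, 4.13, 9.01, 10.27, 12.08 and 7.27. Of 8 dendritic cell markers, 6, 6, 7, 6 and 6 were off, and the 2 measured ones were displaced in array set 2. The part of these cell types in the 9 genes' levels was not tested.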

How the data were processed

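The authors deposited a log2 value for each probe set, made with GCRMA per the submitters' processing notes after amplification of 20 ng of RNA; the GCRMA version and the arrays normalized together are not given in the sources used here. Of 45101 probe sets, 34958 had 1 gene symbol, 932 several and 9211 none, and only the first were used. A probe set was kept at log2 5 or more on at least 2 arrays, and the kept one with the highest mean stood for its gene (9893 genes). All 12 arrays entered 1 limma 3.58.1 fit of 5 groups (R 4.3.3), with 2-sided tests, Benjamini-Hochberg adjustment over all genes and a threshold of 0.05. Lower bounds of folds took log2 5 as the floor. The number of arrays limits the precision.

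The members and gene lists were chosen with earlier results of these data known. Every member was named, for each list up to 3 called genes with the largest difference, and for each member the 3 genes most like it by Pearson's r. Array sets came from hierarchical clustering of array quantiles, cut at 3. Same-numbered Venus-high and Venus-low arrays deviated together from their group means (r = 0.914, 0.945 and 0.915). The fits with a replicate block took these numbers as pairs. The main fit, which gave the SEs and adjusted p-values of the Venus split, did not. In a simulated split of the Tfh arrays by Venus over 9893 genes, the fit recovered 15% of 100 genes changed by 1 log2 unit and 74% of 100 changed by 3, with 5 false calls. The simulated noise was normal and independent between arrays, unlike the shared deviations of the real Tfh arrays, so these rates need not hold for the data. Promoters came from RefSeq (GRCm38.p6). Figures were drawn with Python 3.11.15 and matplotlib 3.10.9. Scanner files and detection calls were not used here.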

Additional observations from a re-analysis of the deposited data

How the results depend on the processing

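The counts of the 9 genes that were off in a group were taken again 37 times, each for 1 group in 1 setting. Of these 37 counts, 34 kept within 1.5 times of the reported ones. In PD1-low cells the count was 2 in place of 1 with a level of log2 6, with quantile normalization over again and without PD1-low replicate 2, and 1 without replicate 1. Of the tests of PD1-low against naive cells, 7 of the 9 genes kept the side of the threshold in all alternatives, and Auts2 and Ampd1 did not, as given above. The Auts2 call held with the array set as a term (adjusted p = 0.00341, limma) and with the replicate block (adjusted p = 0.00939, limma). Because Auts2 passed the filter only through its naive arrays, these fits add no evidence about the gene. Replicate numbers were also no pairing of these groups, as same-numbered arrays deviated in opposite directions (r = -0.770). Auts2 had no value under a filter of log2 7.

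Counts over all genes depended strongly on the fit; the cause was not tested. Between the 2 Tfh groups the count of 130 became 412 with quantile normalization over again, 262 with the replicate block on 12 arrays, 1001 with it on the 6 Tfh arrays, 4 on these arrays without it, 1671 with the array set as a term and 0 without array set 2, and 33 to 152 when 1 array was left out (84, 72 and 68 without Venus-high replicates 1, 2 and 3, 33 and 61 without Venus-low replicates 2 and 3). For PD1-low against naive cells the count of 8 became 20 with no filter, 5 with a filter of log2 7, 37 with quantile normalization, 25 with the replicate block, 0 on the arrays of these groups, 56 with the array set as a term and 0 without array set 2, and 0 to 41 when 1 array was left out (41 and 0 without PD1-low replicates 1 and 2, 2 without naive replicate 1). Same-numbered arrays of these 2 groups deviated in opposite directions (r = -0.770), and with the numbers crossed, chosen after seeing the data, 5 genes were called. For PD1-intermediate against PD1-low cells the count of 397 became 638 with quantile normalization, 692 with the replicate block, 95 on the arrays of these groups, 1266 with the array set as a term and 79 without array set 2, and 137 to 385 when 1 array was left out (137 and 177 without PD1-intermediate replicates 1 and 2, 180 without PD1-low replicate 1). For Venus-low Tfh against PD1-intermediate cells the count of 56 became 146 with quantile normalization, 21 with the intensity trend, 2757 with the replicate block, 2 on the arrays of these groups, 631 with the array set as a term and 5 without array set 2, and 5 to 40 when 1 array was left out (28 and 8 without Venus-low replicates 2 and 3, 8 and 5 without PD1-intermediate replicates 1 and 2). Replicate numbers gave no pairing with PD1-intermediate cells, whose arrays were both in set 3, so nothing is read from the counts of 692 and 2757. Deviations of same-numbered arrays correlated by -0.089 and 0.030 for Venus-low Tfh and PD1-intermediate cells, and by -0.005 for PD1-intermediate and PD1-low cells. Signals below log2 5 limit what can be said of the Tfh groups.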

Other observations

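Other genes, named after their values were seen, had the all-or-none pattern of Pdlim4. Gata1, a transcription factor of red cell and mast cell development, lay below log2 5 on the 8 CXCR5+ arrays and averaged 8.99 in PD1-low and 8.25 in naive cells (difference of the CXCR5+ arrays from the 4 others -5.98). Tet1, an enzyme that oxidizes methylated cytosine, averaged 7.86 in PD1-low and 6.70 in naive cells (difference -4.05), and Dapk1, a kinase linked to cell death, 7.96 and 7.30 (difference -4.98). Tlr7, a receptor for single-stranded RNA, averaged 8.31 in PD1-low and 5.72 in naive cells (difference -3.57). The CXCR5+ values of these genes were all below log2 5, so the differences are not measured sizes. The opposite pattern, off in naive and PD1-low cells and at log2 5 or above on all arrays of the 3 CXCR5+ groups, was found in 124 genes, 1.25% of those tested, against 37 genes with the pattern of Pdlim4.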
